A study of Mus musculus with 2 samples.

Results

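The 40 genes described here encode proteins that carry a cell through G2 and mitosis. They were taken by name from the 15745 genes of a table of transcript counts in single cells of mouse intestinal organoids, and all 40 were found in it. The rule uses their names and no measured value, but the list was drawn up with earlier results of these data known. The organoids are cultures of the gut epithelium, which renews itself from dividing stem cells in its crypts. Per the labels, they came from wild-type C57BL/6 mice of 10 weeks and were grown in medium with EGF at 100 ng/ml, Noggin at 100 ng/ml and R-spondin at 500 ng/ml. A single droplet library of 798 cells was made at day 3 and another of 1065 cells at day 5. Up to day 3 the medium also held 20% Wnt3a-conditioned medium and 10 µM Y-27632, a kinase inhibitor, with 3 µM CHIR99021, an inhibitor of the kinase GSK3, to day 1. From day 3 to day 5 these were absent, so the day and the medium cannot be told apart. No gene was deleted and no reporter was named in the labels, and all cells carried the same genotype. With 1 library at each day there is no replicate, so no test was possible and every interval below is for counting error only.

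A dividing cell copies its DNA in S phase, then raises cyclin B with its kinase Cdk1 in G2, and that pair starts mitosis. Kinases of the Aurora and Polo families build the spindle, the checkpoint holds the chromosomes until each is attached, and the anaphase-promoting complex with Cdc20 then destroys the cyclins. Genes of these steps are switched on late in the cycle by the MuvB complex with B-Myb and FoxM1, and the same MuvB core in the DREAM complex keeps them silent in resting cells. In the gut, the crypt base and the cells just above it divide, while mature absorptive, goblet and Paneth cells do not.

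The promoters are shown first, since a shared regulation through MuvB has a known sequence trace. The cell cycle homology region (CHR), a site that MuvB binds, is read most often as TTTGAA, and the factor NF-Y binds CCAAT. Of the 40 genes, 36 had an entry in the RefSeq promoter table of build GRCm38.p6, which spans 250 bases before to 50 bases after each start. Aurkb, Tpx2, Smc4 and Ccna2 had none. The letters TTTGAA, on either strand, were present in 28 of the 36 genes (77.8%), against 20.2% of all 27025 genes with an entry and 14.8% of the 11659 measured genes with one. CCAAT, also on either strand, was present in 29 of them (80.6%), against 41.1% of all genes with an entry and 42.8% of the measured ones. Both were present in 25 (69.4%), against 7.97% of all genes with an entry. Over the 37 windows of the 36 genes, 17 of 38 TTTGAA matches lay at or after the start. A match is a description of the letters and not evidence of binding.

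The following stretches lie upstream of 5 of the genes, outside their exons. They show a short pair of matches (Cdc20, Kif11), repeated matches (Mki67, Top2a) and a distant one (Ccnb2). Ccnb2 has a second TTTGAA match, 4 bases past the start, which the stretch leaves out. Each stretch is written 5′ to 3′ on the strand of the gene, from RefSeq on GRCm38.p6. Capitals mark TTTGAA or its reverse complement TTCAAA, and CCAAT or its reverse complement ATTGG. Cdc20 lies at chr4:118437353-118437406 on the minus strand, Kif11 at chr19:37376327-37376378 on the plus strand, Mki67 at chr7:135716462-135716577 on the minus strand, Top2a at chr11:99024197-99024426 on the minus strand and Ccnb2 at chr9:70421561-70421731 on the minus strand.
Cdc20: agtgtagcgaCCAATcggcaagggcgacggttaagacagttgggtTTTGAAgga
Kif11: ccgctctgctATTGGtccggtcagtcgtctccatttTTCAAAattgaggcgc
Mki67: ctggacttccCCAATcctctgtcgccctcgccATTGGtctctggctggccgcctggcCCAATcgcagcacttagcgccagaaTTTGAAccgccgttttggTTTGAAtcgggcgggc
Top2a: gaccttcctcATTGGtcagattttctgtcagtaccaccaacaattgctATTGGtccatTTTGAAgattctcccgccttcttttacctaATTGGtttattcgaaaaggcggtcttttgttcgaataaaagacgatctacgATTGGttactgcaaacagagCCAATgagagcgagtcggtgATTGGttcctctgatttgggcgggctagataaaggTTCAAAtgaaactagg
Ccnb2: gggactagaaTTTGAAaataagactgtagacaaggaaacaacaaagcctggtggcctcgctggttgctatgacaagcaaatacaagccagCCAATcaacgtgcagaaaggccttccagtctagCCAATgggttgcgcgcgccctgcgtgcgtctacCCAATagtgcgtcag

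Among other lists, TTTGAA was present in 29 of 48 further G2 and mitosis genes with an entry (60.4%), in 3 of 21 S phase genes (14.3%), in 4 of 15 absorptive genes (26.7%) and in 0 of 9 stem genes. By role, all 3 ubiquitin ligase cofactors and all 4 cytokinesis genes held it. Of the mitotic kinases and checkpoint genes 4 of 6 held it, and of the cyclins with their partners 3 of 5. Birc5, Bub1, Ccnb1, Cenpe and Cks2 were among the 8 genes with an entry but no TTTGAA in this window.

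The 2 libraries differ in depth. The day 3 library held 28764033 transcript counts by unique molecular identifier (UMI), with a median of 32063.5 per cell and a lowest cell of 17601. The day 5 library held 17349076 UMIs, with a median of 13549 per cell and a lowest cell of 6777. How the cells were filtered before deposit is not given in the sources used here. No cell label was shared by the libraries, but the labels hold no barcodes, so shared barcodes could not be counted. Of 7 immune genes the table held 2, Cd68 (1.53 and 0.461 CPM at day 3 and day 5) and Ccl5 (0 and 0.692 CPM). Of 7 stromal and endothelial genes it held 2, Vim (0.869 and 0.0576 CPM) and Pecam1 (0.139 and 0.576 CPM).

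All 40 genes had a lower level at day 5 than at day 3. Levels are sums of UMIs over the cells of a day, scaled to 1000000 (CPM), with exact Poisson 95% intervals, and ratios are log2 of day 5 over day 3. A gene counted as lower when it was at least 1.5-fold lower with intervals apart. By this rule 36 of the 40 were lower and 0 higher, against 31.5% of the 12782 genes with at least 10 UMIs that were lower and 12.3% that were higher. The median log2 ratio of the 40 was -1.11, against -0.33 over all these genes. Their summed level went from 4941 CPM at day 3 to 2463 CPM at day 5. When libraries were scaled with TMM factors (edgeR), which moved the median of all genes by 0.31 to -0.02, 30 of the 40 were lower, against 17.1% of all genes. On that scale Nusap1 and Ncaph turned to 0.05 and 0.22. Most calls also depended on which day 5 cells were summed. The lowest day 3 cell held 17601 UMIs, and in the 320 day 5 cells with at least as many, only 6 of the 40 were lower than at day 3 (Mki67, Bub1, Cks1b, Smc2, Anln and Ccna2), against 23.0% of all genes. The median log2 ratio was then -0.37, against -0.28 over all genes, and Ccnb2, Cdk1, Nusap1, Kif2c, Ncaph, Ckap2 and Hmgb2 stood above 0. The counts by role below are over all cells, and under that minimum every call but these 6 is lost.

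The genes at the ends of the range are all protein coding, and their positions below are from GENCODE M21 on GRCm38; Bub1 and Ncaph, from opposite ends, lie near each other on chromosome 2. Lowest were Cks1b (ENSMUSG00000028044, chr3:89415472-89418383, minus strand), Anln (ENSMUSG00000036777, chr9:22332012-22389188, minus strand) and Bub1 (ENSMUSG00000027379, chr2:127801122-127831865, minus strand). Highest were Ncaph (ENSMUSG00000034906, chr2:127103809-127133954, minus strand), Nusap1 (ENSMUSG00000027306, chr2:119618298-119651244, plus strand) and Ckap2 (ENSMUSG00000037725, chr8:22168160-22185819, minus strand).

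**Figure D1:**
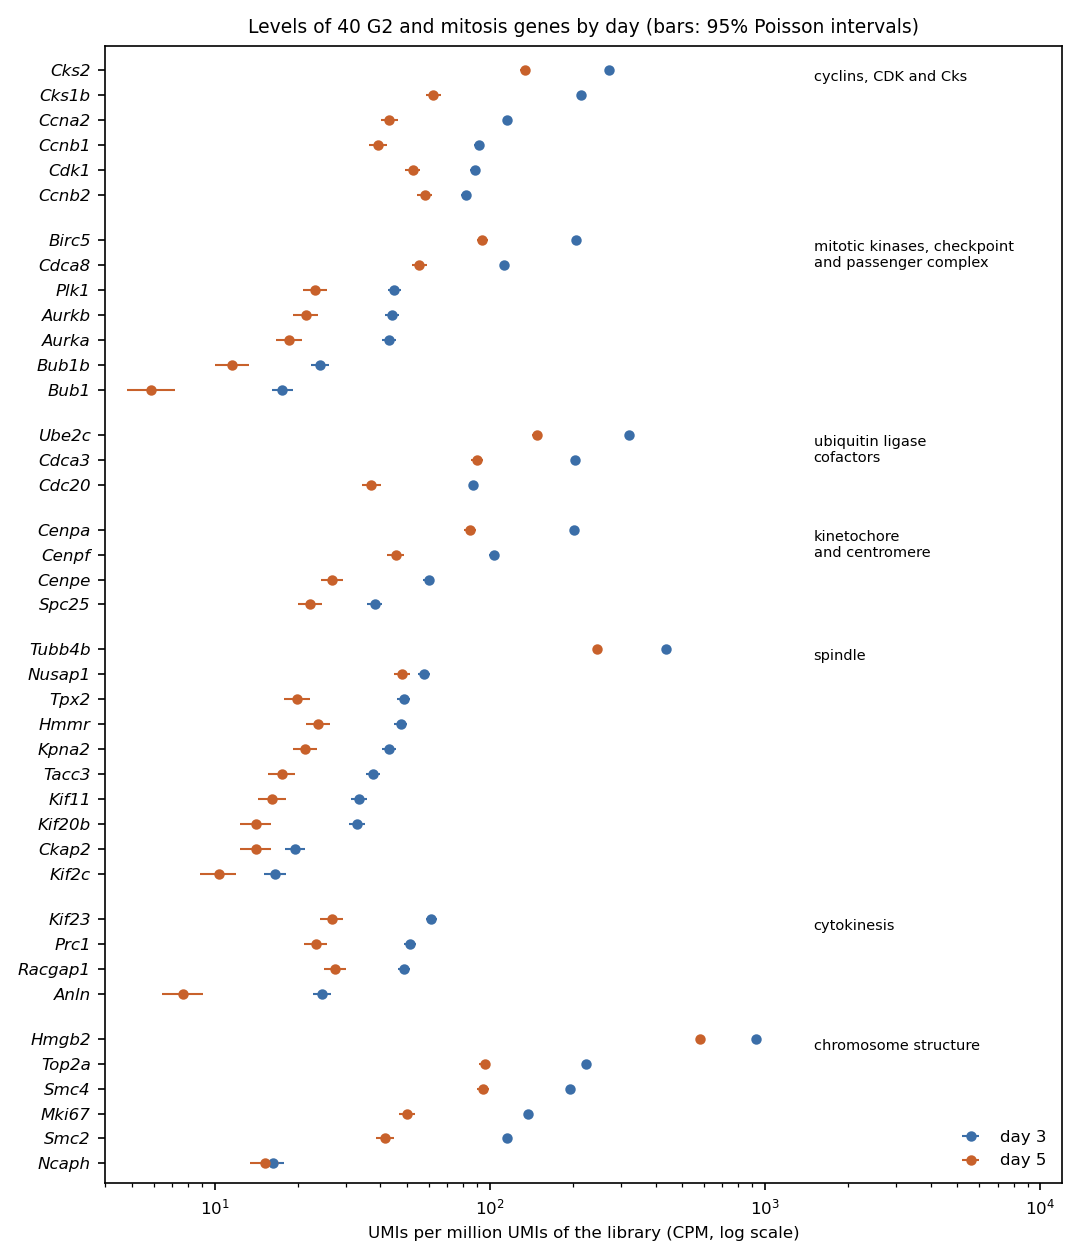
Level of each of the 40 genes at day 3 and day 5 in CPM on a log axis, grouped by role, with exact Poisson 95% intervals as bars. Every gene sits lower at day 5, and the points of Ncaph and Nusap1 lie closest together.

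Cyclins A2, B1 and B2, the kinase Cdk1 and its small Cks partners form the engine of mitotic entry, and 5 of these 6 were lower, with a median log2 ratio of -1.12. Cks2, a Cks protein that binds cyclin-dependent kinases, went from 271.9 CPM (266 to 278) on day 3 to 133.8 CPM (128 to 139) on day 5, a log2 ratio of -1.02. Cks1b, which also helps the SCF ubiquitin ligase take up the inhibitor p27, went from 213.9 CPM (209 to 219) to 62.3 CPM (58.7 to 66.1). Its log2 ratio of -1.78 was the lowest of the 40. Ccna2, the cyclin of S phase and G2, had a log2 ratio of -1.42 and Ccnb1 one of -1.21. Ccnb2, the second B-type cyclin, was the one gene of the group that missed the rule, with 81.9 CPM on day 3 (78.6 to 85.2), 58.0 CPM on day 5 (54.5 to 61.7) and a log2 ratio of -0.50. The B-type cyclins thus had unlike ratios although both had intervals apart.

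All 7 mitotic kinases, checkpoint proteins and members of the chromosomal passenger complex were lower, with a median log2 ratio of -1.06. Birc5 (survivin), the passenger subunit that docks Aurora B on chromosomes, went from 205.6 CPM (200.4 to 210.9) to 93.9 CPM (89.4 to 98.6), a log2 ratio of -1.13. Cdca8 (borealin), of the same complex, went from 112.9 CPM (109 to 117) to 55.5 CPM (52.0 to 59.1), a log2 ratio of -1.03. Bub1, a checkpoint kinase at the kinetochore, was low on both days, at 17.6 CPM (16.1 to 19.2) on the first and 5.88 CPM (4.79 to 7.14) on the other, with the third lowest log2 ratio of the 40, -1.58. Aurka (-1.21), Bub1b (-1.06), Aurkb (-1.04) and Plk1 (-0.96) lay in a narrow range of log2 ratios.

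The 3 cofactors of ubiquitin ligases were lower, at a median log2 ratio of -1.19. Ube2c, the ubiquitin-conjugating enzyme of the anaphase-promoting complex, went from 320.4 CPM (314 to 327) to 148 CPM (142 to 154), a log2 ratio of -1.11. Cdca3, which links an F-box ligase to the destruction of the kinase Wee1, went from 204.3 CPM (199 to 210) to 89.6 CPM (85.2 to 94.2), a log2 ratio of -1.19. Cdc20, the activator of the anaphase-promoting complex, had a log2 ratio of -1.23. These 3 had near equal ratios.

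The 4 kinetochore and centromere genes were lower as well, with a median log2 ratio of -1.18. Cenpa, the histone H3 variant that marks centromeres, went from 202.6 CPM (197 to 208) to 84.8 CPM (80.5 to 89.2), a log2 ratio of -1.26. Cenpf, a large coiled-coil protein of the outer kinetochore, went from 103 CPM (99.6 to 107) to 45.4 CPM (42.3 to 48.7), a log2 ratio of -1.18. Cenpe, the kinetochore motor, had -1.17, and Spc25, of the Ndc80 complex, had -0.77.

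Of the 10 spindle genes 8 were lower, with a median log2 ratio of -1.005. Tubb4b, a beta-tubulin that is broadly expressed, went from 437 CPM (430 to 445) to 244 CPM (237 to 252), a log2 ratio of -0.84. Nusap1, which bundles microtubules near chromosomes, had 57.6 CPM on day 3 (54.9 to 60.4) and 48.0 CPM on day 5 (44.8 to 51.4), a log2 ratio of -0.26. Ckap2, another microtubule protein, had 19.6 CPM on day 3 (18.1 to 21.3) and 14.1 CPM on day 5 (12.3 to 15.9), a log2 ratio of -0.48. Neither met the rule. The other spindle genes had log2 ratios from -1.28 (Tpx2, which activates Aurora A on the spindle) to -0.68 (Kif2c, a kinesin that shortens microtubules).

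The 4 cytokinesis genes were lower, with a median log2 ratio of -1.17. Kif23, the motor of the centralspindlin complex, went from 61.2 CPM (58.3 to 64.1) to 26.6 CPM (24.2 to 29.1), a log2 ratio of -1.20. Racgap1, its partner, went from 48.7 CPM (46.2 to 51.3) to 27.3 CPM (24.9 to 29.9), a log2 ratio of -0.83. Anln (anillin), the scaffold of the contractile ring, went from 24.6 CPM (22.8 to 26.5) to 7.67 CPM (6.42 to 9.08), the second lowest ratio of the 40 at -1.68. Prc1, which cross-links microtubules of the midzone, had -1.14.

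Of the 6 genes of chromosome structure 5 were lower, with a median log2 ratio of -1.14. Hmgb2, an abundant chromatin protein, went from 923 CPM (912 to 934) to 579 CPM (568 to 591), a log2 ratio of -0.67. Top2a, which untangles sister chromatids, went from 224 CPM (219 to 230) to 95.7 CPM (91.1 to 100.4), a log2 ratio of -1.23. Mki67, the marker Ki-67 that coats mitotic chromosomes, had -1.46. The condensin subunits had unlike values. Smc2 had a log2 ratio of -1.48 and Smc4 one of -1.04, while Ncaph had 16.3 CPM on day 3 (14.8 to 17.8) and 15.2 CPM on day 5 (13.4 to 17.2), a log2 ratio of -0.10 with intervals that overlap.

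Genes around the 40 were set beside them. Of 56 other G2 and mitosis genes, 48 were lower and 0 higher (median log2 ratio -0.97), and of 24 S phase genes 23 were lower (median -1.31). Of 15 upstream regulators such as the MuvB subunits, Foxm1 and Wee1, 8 were lower and 0 higher (median -0.75). Of 10 arrest genes, among them inhibitors of cyclin-dependent kinases, 4 were higher and 2 lower (median 0.31).

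A sum over all cells does not say whether fewer cells hold the transcripts or each cell holds less. The 40 genes were therefore counted cell by cell, after every cell had been drawn down at random to 6777 UMIs, the total of the lowest cell. For this count 35 genes were used, leaving out the broadly expressed Hmgb2, Tubb4b, Cks1b, Smc2 and Smc4. At day 3 the number of the 35 with a UMI in a cell had a median of 12 and a 10th to 90th percentile range of 3 to 20. At day 5 the median was 1 and the 10th to 90th percentile range 0 to 17. At day 5, 376 of 1065 cells (35.3%) had none of the 35, against 9 of 798 (1.13%) at day 3. Cells at the top were alike, with a highest count of 26 at day 3 and 27 at day 5.

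**Figure D2:**
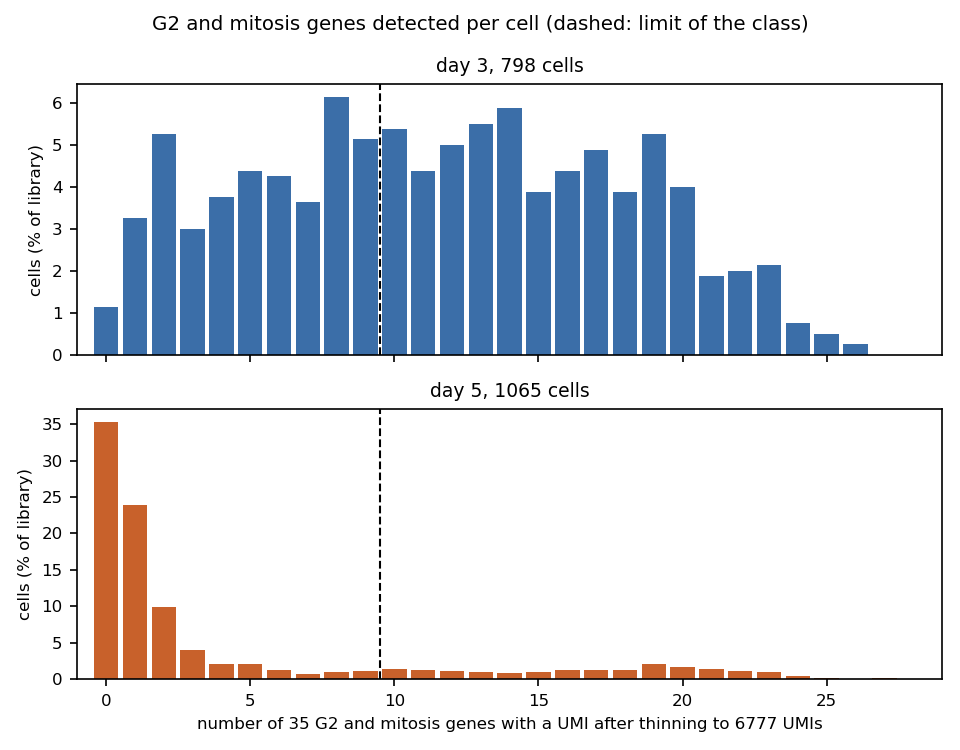
Share of cells of each library by the number of the 35 genes with a UMI, each cell drawn down to 6777 UMIs, with the limit of 10 as a line. The vertical scales differ. Day 3 cells spread broadly from 0 to 26 with no gap at the limit, while most day 5 cells lie near 0 and the rest spread thinly up to 27.

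Cells with at least 10 of the 35 genes are called G2 or mitosis cells below. This is a range of a score and not a measured cell cycle phase. By it 479 of 798 day 3 cells (60.0%, exact binomial 95% interval 56.5 to 63.4) and 197 of 1065 day 5 cells (18.5%, 16.2 to 21.0) were in the class. Near the limit, with 8 to 11 genes, lay 168 day 3 cells (21.1%) and 52 day 5 cells (4.88%), so the day 3 share moves more with the limit. At a limit of 7 the shares were 74.9% and 21.4%, and at 14 they were 39.7% and 13.7%. At a limit of 18, chosen after the counts had been seen, they were 20.7% and 9.30%. The day 5 share was the lower one at all 4 limits.

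Depth moved with the class. The median UMIs per cell before drawing down were 34524 in the class and 25730 in cells with few genes of either G2 or S phase at day 3, and 21167 and 12198 at day 5. Of the 320 day 5 cells that reached the day 3 minimum, 153 (47.8%) were in the class. Most class cells of day 5, 153 of 197, thus lay above that minimum. The part that a filter on total UMIs has in the 36 lower genes was not tested.

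Shares of cells with a UMI for single genes had the same order. After drawing down, Top2a had a UMI in 60.8% of day 3 cells and 20.6% of day 5 cells, and Mki67 in 52.4% and 17.2%. Ube2c had one in 66.7% and 21.2%, and Cdc20 in 39.9% and 12.8%. Cells in clusters with absorptive markers serve as a reference for free RNA, since mature absorptive cells do not divide. Top2a had a UMI in 29.8% of these at day 3 and 0.838% at day 5, and Mki67 in 21.4% and 1.40%, at medians of 25287 and 10347.5 UMIs before drawing down. At day 3, 18 of these 84 cells were in the G2 or mitosis class, so free RNA and transcripts of dividing cells cannot be told apart in them. Tubb4b had a UMI in 63.4% and Hmgb2 in 27.4% of the absorptive cells of day 5.

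Inside the class the day 5 cells had member levels close to those of the day 3 cells. The 40 genes summed to 6336 CPM in class cells at day 3 and to 7139 CPM at day 5, and outside the class to 2429 CPM and 744 CPM. Since 35 of the genes choose the class, the gap between class and other cells is a description of that choice. The comparison of days within it is limited by the same choice, so fewer cells of a kind and less RNA per cell cannot be told apart here. In class cells 28 of the 40 had a day 5 over day 3 log2 ratio above 0 and 12 below, with a median of 0.09, where the median over 11824 genes was -0.25. With the TMM shift of 0.31 added, 37 were above 0. That shift came from the sums over all cells, and no factor was computed for class cells. Outside the class all 40 were below 0 on both scales, with a median of -1.97, where the median of all genes was -0.37.

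Single genes show how the 2 kinds of cell combine. Nusap1 in class cells went from 82.4 CPM (78.3 to 86.6) on day 3 to 166 CPM (154 to 178) on day 5, and in other cells from 13.0 CPM (10.9 to 15.4) to 4.73 CPM (3.61 to 6.09). Ncaph in class cells went from 20.6 CPM (18.6 to 22.8) to 42.5 CPM (36.7 to 48.8), and in other cells from 8.47 CPM (6.78 to 10.4) to 5.20 CPM (4.02 to 6.62). These, the genes whose level over all cells moved least, had the highest log2 ratios inside the class, 1.01 and 1.04. Cks1b had the lowest there, at -0.67, from 259 CPM (252 to 267) to 163 CPM (152 to 175). Anln had the lowest outside, at -3.38.

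**Figure D3:**
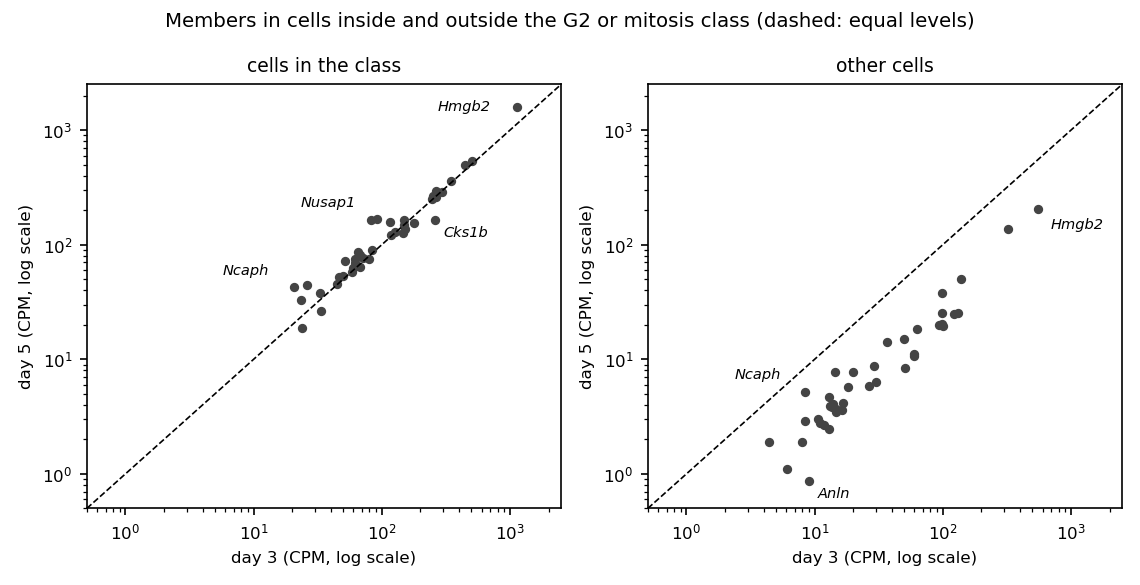
Level of each of the 40 genes at day 5 against day 3 in CPM on log axes, in cells of the class and in other cells, with a dashed line of equal levels. Points lie along the line inside the class, with Nusap1 and Ncaph above it and Cks1b below, and all 40 lie under the line in other cells.

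The contrast between class and other cells was steeper at day 5 for every gene. The fold of class over other cells had a median of 3.64 at day 3, from 1.48 (Ccnb2) to 7.45 (Cenpf). At day 5 the median was 15.8, from 3.94 (Tubb4b) to 35.03 (Nusap1). Ccnb2 had 92.5 CPM (88.2 to 97.0) in class cells of day 3 and 62.7 CPM (57.9 to 67.7) in the others. At day 5 it had 166 CPM (154 to 178) in class cells and 18.3 CPM (16.01 to 20.8) in the others. Across cells its Spearman rho with the sum of the other members was 0.17 at day 3 and 0.52 at day 5. Over the 40 genes this rho ran from 0.15 (Ncaph) to 0.66 (Ube2c) at day 3 and from 0.24 to 0.67 (Hmgb2) at day 5. These are descriptions over cells that share a library and were drawn to 1 depth.

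Other cell cycle genes were set against the same classes. Here and below a gene is higher or lower in class cells than in the other cells of the same library by the rule given above. At day 3 this held for 3.14% (higher) and 5.53% (lower) of 12143 genes, and at day 5 for 16.6% and 12.9% of 11536. Of the 56 other G2 and mitosis genes, 49 were higher at day 3 (median log2 ratio 1.51) and all 56 at day 5 (3.62), and none was lower. Aspm, a spindle pole protein, was at 24.9 and 3.31 CPM in class and other cells at day 3 (log2 ratio 2.89), and at 25.3 and 0.552 CPM at day 5 (5.43). Foxm1, the late cell cycle factor, had a log2 ratio of 1.53 at day 3 and 4.07 at day 5. With Foxm1, 4 of 15 upstream regulators were higher at day 3 and 9 at day 5.

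For S phase genes the day 3 direction turned with the limit of the class. Of 24, 2 were higher and 2 lower in class cells at day 3, with a median log2 ratio of -0.02. At a limit of 7 of the 35 genes, 9 were higher and 0 lower (log2 ratio of the summed list 0.54), and at a limit of 14, 0 were higher and 5 lower (-0.29). At day 5, 17 were higher and 0 lower, with a median of 0.96, and at these limits 22 and 10 were higher and 0 lower. At day 3 Pola1 (0.85) and Rrm1 (0.66) were higher and the G1/S cyclins Ccne1 (-0.89) and Ccne2 (-1.03) lower. Rrm1, a subunit of ribonucleotide reductase, had 2.35 at day 5. Cells with at least 6 of the 24 S phase genes and outside the class, a limit set after the counts were seen, made up 21.3% of day 3 cells and 7.79% of day 5 cells. Cells with neither made up 18.7% and 73.7%. Class cells that also had at least 6 S phase genes made up 35.6% of day 3 cells and 6.48% of day 5 cells.

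Among the arrest genes, 1 of 10 was higher and 4 lower in class cells at day 3, and 2 were higher and 4 lower at day 5. Cdkn1a (p21) was at 60.6 CPM in class cells and 124 CPM in others at day 3, a log2 ratio of -1.03. Cdkn2b (p15) was at 16.3 and 75.3 CPM at day 5 (-2.20), and Btg2, an antiproliferative gene, at 61.3 and 202 CPM (-1.72). Cdkn2c (p18) went the other way, with log2 ratios of 0.89 and 1.89. Without Absorptive-like cells on both sides, 3 of 9 arrest genes were higher and 3 lower at day 5. The log2 ratio of the summed list there went from -0.81 to -0.53. At day 3, 2 of 10 were then higher and 4 lower.

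The link to stem-like genes was weak at day 3 and larger at day 5. Of 14 stem genes, 12 had enough UMIs at day 3, and 2 were higher in class cells and 0 lower (median log2 ratio 0.20, all genes 0.01). At day 5, 7 of 13 were higher and 0 lower (median 0.90, all genes 0.12). Lgr5, through which stem cells of the crypt base sense R-spondin, had 15.7 CPM in class cells (13.9 to 17.6) and 16.5 CPM in others (14.2 to 19.2) at day 3, with intervals that overlap. At day 5 it had 29.2 CPM in class cells (24.5 to 34.5) and 14.5 CPM in others (12.5 to 16.8), a log2 ratio of 1.01. Axin2, a target of Wnt signals, had log2 ratios of 0.59 and 1.25, and the ion transporter Slc12a2 0.40 and 1.26. Cd44, another Wnt target, had -0.36 at day 3 and 1.19 at day 5. The day 3 calls were not stable, with 4 higher and 1 lower at a limit of 7 and 0 called at a limit of 14 or with drawn-down counts. Without Absorptive-like cells on both sides, 0 stem genes were higher at day 3 and 4 at day 5.

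Regenerative genes, which mark a fetal-like repair state of the gut, were lower in class cells in 8 of 14 cases at day 3 and 0 were higher (median -1.12). At day 5, 3 of 12 were lower and 0 higher (median -0.39), and the summed list went from -0.18 to 0.04 with drawn-down counts. Clu, a marker of revival stem cells, was at 244 CPM (237 to 251) in class cells and 587 CPM (573 to 602) in others at day 3, a log2 ratio of -1.27. At day 5 its class level of 19.5 CPM (15.7 to 24.0) and its level of 21.3 CPM in others (18.8 to 24.0) had intervals that overlap. Lgals3 and Msln had log2 ratios of -1.52 each at day 3, and Msln -2.22 and the EGF family ligand Areg -1.87 at day 5. Ly6a (Sca-1) had -0.53 at day 3 and did not meet the rule. The share of day 3 cells in the class was 62.1% (57.1 to 67.0) with a Clu UMI after drawing down. It was 58.0% (53.1 to 62.9) without one, with intervals that overlap.

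Absorptive genes had the lowest list medians of the programmes compared, on both days. At day 3, 11 of 15 were lower in class cells and 0 higher (median -1.41), and at day 5 all 16 were lower (median -3.24). Apoa4, an apolipoprotein of enterocytes, was at 0.649 CPM in class cells and 10.5 CPM in others at day 3 (-3.97). Fabp1, the fatty acid carrier, was at 63.4 and 623 CPM (-3.30). At day 5 the cytochrome Cyp3a11 was at 11.1 and 336 CPM (-4.90) and Apoa1 at 152 and 4062 CPM (-4.74). When Absorptive-like clusters were left out, the summed absorptive genes had a log2 ratio of -2.13 at day 5, with 14 of 16 lower. At day 3 it was -0.43, with 2 lower. The other day 5 cells that remained still held 7667 CPM of these genes, against 1749 CPM in class cells. The day 5 cells kept include 2 unnamed clusters of 134 and 126 cells with Edn2 among their leading genes.

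Secretory genes differed by lineage and by day. Of the secretory precursor genes, 0 of 9 were higher and 2 lower at day 3. At day 5, 1 of 7 was higher, where 16.6% of all genes were. That gene was Sox4, a factor of early secretory cells, at 137 CPM (127 to 148) in class cells and 69.5 CPM (64.9 to 74.2) in others (0.98). Without Absorptive-like cells on both sides, 0 of 7 were higher at day 5, and 3 of 9 were lower at day 3. Dll1, the Notch ligand of these precursors, had log2 ratios of -0.01 and 0.16 with intervals that overlap. Goblet genes were lower in class cells at day 3 in 8 of 9 cases, among them Zg16 (-2.42) and the mucin Muc2 (-2.07). Muc2 had a UMI after drawing down in only 18 day 3 cells, 5 of them in the class. At day 5, 3 were lower, with Guca2a at -1.46, and 2 higher, with Agr2 at 0.91 and Ccl9 at 1.36. With drawn-down counts, which weight cells equally, 2 were lower and 5 higher. Of 7 Paneth genes, 2 were lower at day 3, and 4 lower and 1 higher at day 5. The day 5 count became 1 lower and 2 higher both at a limit of 7 and with drawn-down counts. It became 5 lower and 1 higher at a limit of 14, and 5 lower and 0 higher without Absorptive-like cells. Paneth genes come in large amounts from few cells, and 10 class cells held 80.1% of their class UMIs at day 3 and 91.6% at day 5.

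**Figure D4:**
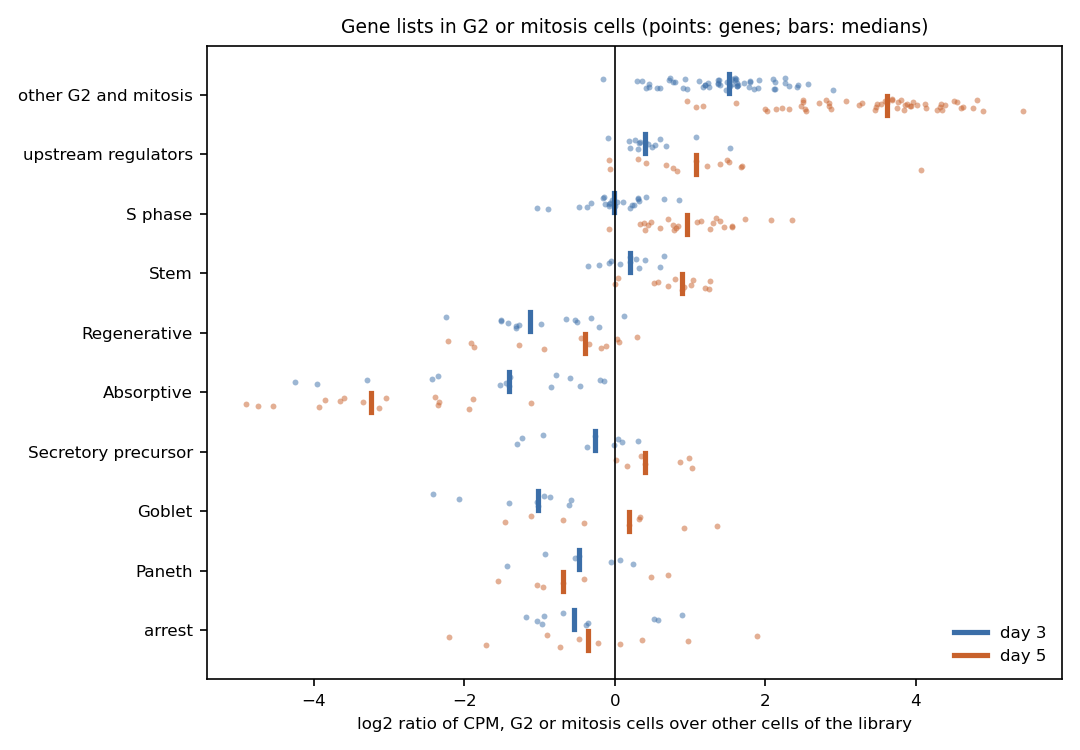
Log2 ratio of class cells over other cells of the same library for single genes (points) of 10 gene lists at day 3 and day 5, with the median of each list as a bar. Among the 10 lists drawn, absorptive genes reach the lowest values and other G2 and mitosis genes the highest, both more so at day 5. Enteroendocrine genes are not drawn.

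Cells were also ranked by programme. They were ordered by the mean ln(1 + UMI) of a list after drawing down, and the class share was taken in the lowest and the highest 199 cells of day 3 and 266 cells of day 5. For stem genes it was 46.7% in the lowest cells and 63.3% in the highest ones at day 3. At day 5 it was 6.02% (3.48 to 9.58) and 41.0% (35.01 to 47.1). All 266 lowest cells of day 5 had a stem score of 0, so ties were broken at random. Median UMIs before drawing down in these day 5 groups were 11300.5 and 18926.5. For absorptive genes the class share fell from 68.3% to 46.2% at day 3. At day 5 it was 44.7% (38.7 to 50.9) in the lowest cells and 0 of 266 in the highest. The exact interval of the latter reaches 1.38%, and 3 cells would be 1.13%. Median UMIs before drawing down in these last groups were 19735.5 and 9915.5, so depth moved with the programme, and its part was not tested. Ranked by regenerative genes, the ends had 61.3% and 54.3% at day 3 and 16.5% and 19.2% at day 5. The intervals overlap on both days, and at day 5 every cell at the lower end had a score of 0. Ranked by secretory precursor genes the ends had 13.9% and 27.1% at day 5. There too every cell at the lower end had a score of 0 and ties were broken at random. Ranked by goblet genes the ends had 27.4% (22.2 to 33.2) and 10.5% (7.11 to 14.9) at day 5. The median ratio of goblet genes in class over other cells was 0.18 there.

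Across cells the Spearman rho of the summed members with the stem score was 0.15 at day 3 and 0.49 at day 5, and with the absorptive score -0.20 and -0.59. With the S phase score it was 0.07 and 0.57. Cells with a UMI of Lgr5 were in the class in 60.6% of cases at day 3, and those without in 60.0%. At day 5 the values were 43.8% (32.7 to 55.3) of 80 cells and 16.4% (14.2 to 18.9) of 985 cells. Other stem markers did not all follow Lgr5. For Slc12a2 the class share was 65.6% (61.5 to 69.6) with a UMI and 47.6% (41.2 to 54.0) without at day 3, and 39.7% and 11.6% at day 5. For Ascl2 it was 76.9% of 39 cells and 59.2% of the others at day 3, and 2 of 18 cells (11.1%) and 18.6% at day 5, with intervals that overlap on both days. For Fabp1 the shares were 49.3% with and 63.7% without at day 3, and 13.96% and 48.2% at day 5. For Apoa1 they were 58.8% and 60.2% at day 3, with intervals that overlap, and 11.9% and 37.2% at day 5. For Dll1 they were 22.1% and 18.2% at day 5, with intervals that overlap. The marker genes split in this way, Clu included, were chosen with values of these data known.

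Clusters were made in each library on its own, without the members, the other G2 and mitosis genes, the S phase genes and the histone genes. At day 3 the class share was 71.4% (62.1 to 79.6) in the Stem-like cluster of 112 cells. This cluster had Gkn3, Ascl2 and Lgr5 among its leading genes. The share was 75% (57.8 to 87.9) in the Regenerative-like cluster of 36 cells with Ly6a, Anxa1 and Anxa3. A cluster of 45 cells that mixed Paneth and goblet genes had 51.1% (35.8 to 66.3), and the Absorptive-like cluster of 84 cells 21.4% (13.2 to 31.7). The first 3 of these intervals overlap in part, and that of the Absorptive-like cluster lies below all of them. The highest day 3 shares lay in unnamed clusters, with 64 of 73 cells (87.7%) and 70 of 87 (80.5%). The cluster of 73 cells had Foxm1 among its leading genes, which was not left out of the clustering. Another unnamed cluster, with Ung, Clspn and Rad51ap1 among its leading genes, had 41 of 87 (47.1%).

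At day 5 no cluster met the rule for a Stem-like name. The 2 Absorptive-like clusters together had 0 of 358 cells in the class. The exact interval of this share reaches 1.03%, and 3 cells would be 0.838%. The Paneth-like cluster had 11 of 41 cells in it (26.8%, 14.2 to 42.9) and the Regenerative-like cluster 2 of 17 (11.8%, 1.46 to 36.4). Most class cells lay in 2 unnamed clusters. One, with Prr11, Ska3, Cdkn3 and Foxm1 among its leading genes, had 54 of 62 cells (87.1%) in the class. The other, with Bard1, Rad51ap1 and Esco2 among its leading genes, had 115 of 163 (70.6%). Several of these leading genes are known cell cycle genes that were not left out of the clustering, among them Foxm1 of the upstream regulators. The cluster with Gkn3, Marcksl1 and Myc among its leading genes had 14 of 164 cells in the class (8.54%). Outside Absorptive-like clusters the class share was 64.6% at day 3 and 27.9% at day 5. Those day 5 cells include 2 other unnamed clusters with Edn2 among their leading genes. These clusters had 0 of 134 and 1 of 126 cells in the class.

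**Figure D5:**
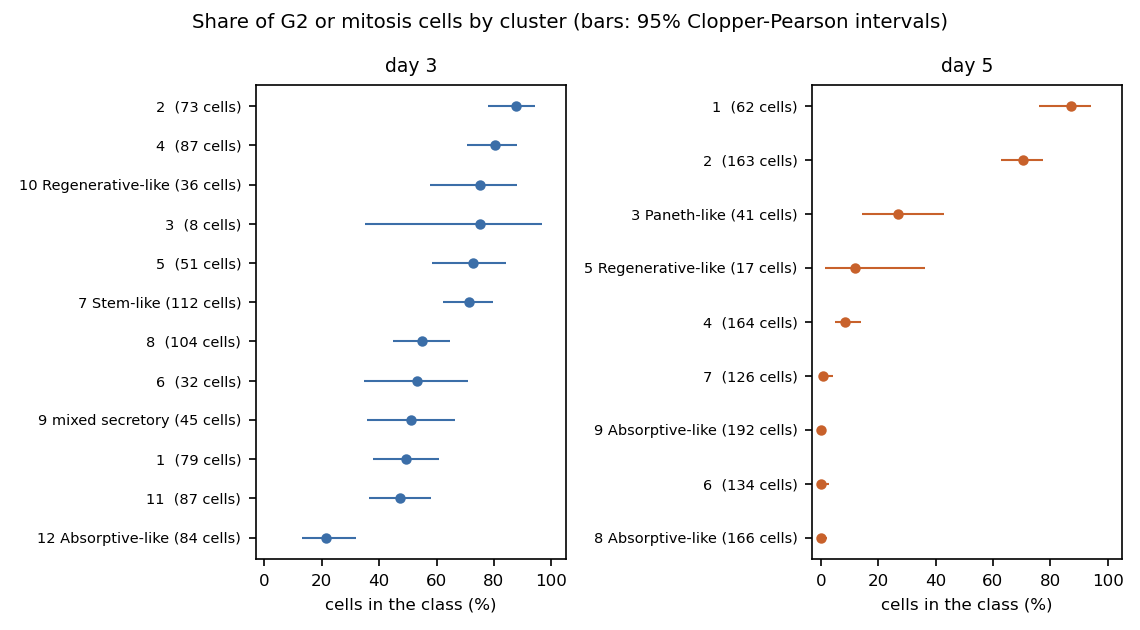
Percent of cells in the G2 or mitosis class by cluster at day 3 and day 5, with exact binomial 95% intervals as bars. At day 5 the 2 unnamed clusters with cell cycle genes among their leading genes stand at 87.1% and 70.6%, and the Absorptive-like clusters at 0.

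Absorptive-like cells at day 3 still held member transcripts. The 40 genes summed to 2591 CPM in them, and to 308 CPM in the Absorptive-like cells of day 5. At day 3 the 66 Absorptive-like cells outside the class had 1279 CPM, of which 40.1% came from the 5 broad genes. At day 5 the 5 broad genes gave 73.1% and Tubb4b alone 49.9%. Ube2c had a UMI after drawing down in 52.4% of Absorptive-like cells at day 3 and in 2.79% at day 5, and Cdca3 in 51.2% and 1.68%. The day 3 and day 5 clusters of this name had different leading genes. Among them were Apoa4, Fabp1 and Sis at day 3 and Apoa1, Slc2a2 and Cyp3a11 at day 5.

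The genes outside the 40 whose level followed their sum most closely were found among genes of at least 20 CPM by Spearman rho over the drawn-down cells. At day 3 the 10 highest of 4944 genes were Ube2s (0.56), Tuba1b, Hist1h2ap, H2afx, H2afz, Arl6ip1, Tubb5, Hmgb1, Jpt1 and Ptma (0.39), over 798 cells. At day 5 they were Tubb5 (0.67), Stmn1, H2afz, Hist1h2ap, Ptma, Pclaf, Hmgb1, Tuba1b, Ranbp1 and Ppia, of 4308 genes over 1065 cells. Of the 10, 6 were shared by both days. Plac8 had the lowest rho on both days, -0.32 and -0.64.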

How the data were processed

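The authors deposited counts of UMIs per gene and cell and a table of log2 values of the same cells, on build mm10 per the labels, and used Cell Ranger 1.3.0 per the submitters' processing notes. How genes and cells were filtered is not given in the sources used here. From the values, each deposited log2 value is log2(1 + count / size factor), with the size factor of a cell its total over the mean total. The prefix of each column gave its day. Symbols were found for 15681 of 15745 identifiers, and the other 64 held 0.0194% of UMIs. The 40 members and all gene lists were chosen with earlier results of these data known.

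UMIs were summed over cells, scaled to 1000000, and given exact Poisson 95% intervals. Ratios used 0.5 UMI added to each sum. The rule for a call asks for 1.5-fold, intervals apart and at least 10 UMIs over both sums. Shares have exact Clopper-Pearson 95% intervals. A share of 0 is given with the upper end of its interval and the share that 3 cells would make. Cells were drawn down without replacement to 6777 UMIs. Clusters came from scanpy 1.11.5 with Leiden on 2000 variable genes, 30 components and 15 neighbours at resolution 1, and a name needed at least 3 markers of a type among 25 leading genes. Doublets were not called. The rule for named genes takes the 2 genes of highest summed CPM in each role, the 3 highest and 3 lowest ratios, and the 3 highest and 3 lowest genes of each programme with at least 10 CPM; it also takes the 10 genes of highest rho in each library. Alternatives were TMM factors from edgeR 4.0.16, other limits, depths and cell sets, and the deposited log2 values. Computations ran in Python 3.11.15 with numpy 2.4.6, pandas 2.3.3 and scipy 1.17.1. The call rule was tried on simulated Poisson counts, the model that its intervals assume. These counts held no variation between cells or libraries, so the trial cannot judge calls between single libraries. Some genes outside the rule are named for their role and were chosen with their values seen.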

Additional observations from a re-analysis of the deposited data

Results flagged for a closer look

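Summed enteroendocrine genes differed in direction between the days. The log2 ratio of G2 or mitosis cells over other cells was 0.84 at day 3 and -4.79 at day 5, and the difference between the days was not tested. These sums rest on few cells. A single cell held 63.6% of the class UMIs at day 3, and a single cell held 47.8% of the UMIs of other cells at day 5. Without the 10 cells that held most in each group, the log2 ratios were -0.07 at day 3 and -0.50 at day 5.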

How the results depend on the processing

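The median log2 ratio of the 40 genes was -0.80 with TMM factors (all genes -0.02) and -0.82 without Absorptive-like cells (all genes -0.34). It was -0.37 with day 5 cells at the day 3 minimum (all genes -0.28). In the mean of the deposited log2 values it was -0.70 (all genes -0.07). The last setting gives no call. The count of lower genes was 6 with day 5 cells at the day 3 minimum (23.0% of all genes). It was 30 with TMM factors (17.1% of all genes), 31 without Absorptive-like cells (29.5%) and 28 at 2-fold (15.3%). With 1 UMI added it was 36 (31.4% of all genes), and with no minimum of UMIs it was 36 (25.6%). With day 5 cells at the day 3 minimum, the log2 ratios of Cdk1, Kif2c and Hmgb2 turned to 0.0184, 0.11 and 0.0023. The cause was not tested. For the day 3 and day 5 shares of cells in the class, the values were 74.9% and 21.4% at a limit of 7, 39.7% and 13.7% at 14, and 20.7% and 9.30% at 18. They were 88.0% and 24.2% with no drawing down, 72.3% and 24.3% at 9800 UMIs with 183 day 5 cells left out, and 76.3% and 21.6% with all 40 genes. The G2M phase of scanpy gave 45.2% and 16.9%, and 353 of 361 and 176 of 180 such cells were in the class. Of the class cells, scanpy called 122 S and 4 G1 at day 3, and 21 S and 0 G1 at day 5. Another random drawing gave 60.5% and 18.03%. With the day 3 minimum the day 5 share was 47.8%. The day 5 share was below the day 3 share in all of these. Summed Paneth genes in class over other cells at day 5 turned from -0.69 to 0.0388 at a limit of 7. Their log2 ratio was -1.37 at a limit of 14 and -1.20 without Absorptive-like cells. No paired analysis was possible because each day has 1 library. Depth limits the shares of single genes, since a cell drawn down to 6777 UMIs misses transcripts of low genes.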
